A study of Mus musculus with 9 samples.

Results

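Creb5 and 4 related transcription factor genes, Creb1, Crem, Atf2 and Atf7, were followed across the cholinergic neurons of the adult mouse spinal cord. They are 5 of the 21457 features in the expression matrix of 16042 cholinergic nuclei. Creb5 was chosen by its measured level over the 21 cell clusters, which is high in gamma and visceral motor neurons (MNs), and the other 4 were listed beside it as relatives. Because the pattern over clusters chose the gene, and because the clusters were drawn from the same nuclei, differences between clusters are given as a description with no test. Tests are given for regions of the cord and for pools of mice, which the choice did not use.

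All libraries came from mice aged 8 weeks that carried both Chat-IRES-Cre with the neomycin cassette removed and the CAG-Sun1/sfGFP reporter. In these mice, any cell that has expressed Chat, the gene of the enzyme that makes acetylcholine, keeps a GFP-tagged nuclear envelope, even if Chat was on only in development. GFP+ and DRAQ5+ nuclei were sorted from cervical, thoracic and lumbar/sacral cord of 3 pools of 4 mice, which gave 9 libraries. Replicate 1 mixes the sexes, replicate 2 is male and replicate 3 is female. The 3 libraries of a replicate are taken to come from the same mice, since each cord was divided into the regions. Nuclear RNA was read from the 3′ end, introns included. Values are counts that the authors corrected with SCTransform, summed here over the nuclei of a cluster in a library and scaled to the same total in every sum (CPM).

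The labels give 3 clusters of skeletal MNs (S1 to S3, 5054 nuclei), which drive skeletal muscle, 10 of visceral MNs (V1 to V10, 5613 nuclei), which drive autonomic ganglia, and 8 of cholinergic interneurons (I1 to I8, 5375 nuclei). S2 is labelled alpha, S3 gamma and S1 Type 3. Nrp2 and Plekhg1, gamma markers, set S3 apart: Nrp2 stood at 442 CPM against 37.6 CPM in S2 and 3.79 CPM in S1, and Plekhg1 at 530 CPM against 23.8 and 105 CPM. Esrrg, at 2056 CPM in S3 and 1931 in S1, did not divide these 2 clusters. The visceral marker Zeb2 was near absent from V8 at 7.79 CPM, where Fbn2 stood at 1172 CPM. Glis3, an alpha marker, had 139 CPM in S2 and 6.90 CPM in S3. Median depth ran from 4712 to 16127 corrected counts per nucleus over the libraries, and 33 of 16009 barcodes occurred in more than 1 library. Summed over 4 astrocyte markers the libraries held 1.35 to 5.31 CPM, and over 5 oligodendrocyte markers 49.9 to 68.8 CPM, with Mbp the highest at 32.1 to 41.5 CPM. Microglia markers summed to 6.28 to 96.8 CPM, mostly P2ry12. The Hox genes of 2 libraries went against their labels. Hoxa9, which is little expressed at cervical levels, had 9.68 CPM in the library labelled cervical replicate 2 and 0.507 CPM in the library labelled thoracic replicate 2, against 0.213 and 0.412 CPM in the other cervical and 9.04 and 9.35 CPM in the other thoracic libraries. Each of these 2 libraries lay near the libraries of the other region. Whether their labels were exchanged was not tested, and the labels were kept. The differences of Creb5 and the calls between regions are also given without these 2 libraries.

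CREB and ATF proteins are basic leucine zipper factors that bind DNA as pairs. CREB1 and CREM are switched on when a kinase phosphorylates them, as protein kinase A does after cyclic AMP rises, and they bind the cyclic AMP response element (CRE), whose full form reads the same on both strands. Creb5 encodes a factor closest to ATF2 and ATF7, which can pair with JUN and answer to stress kinases. In neurons, this machinery links calcium and cyclic AMP signals to transcription.

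Creb5 itself carries a full CRE just before its first annotated start. The gene (ENSMUSG00000053007.9) spans chr6:53287270-53700376 on the plus strand of GRCm38 in GENCODE M21, which is 413 kb. It holds the small genes Gm25818 and Gm44080 on the same strand. The RefSeq promoter table for GRCm38.p6 matched 4 of the 5 members and gives Creb5 a pair of windows. The bases of the first window up to the one before the GENCODE start, chr6:53287053-53287269 on the plus strand, are shown because they hold the element, which is in capitals.

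Creb5 first promoter window: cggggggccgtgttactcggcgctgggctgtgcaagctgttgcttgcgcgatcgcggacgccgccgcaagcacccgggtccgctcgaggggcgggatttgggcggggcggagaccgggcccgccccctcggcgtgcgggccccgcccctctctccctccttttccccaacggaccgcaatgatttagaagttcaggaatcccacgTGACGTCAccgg

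The element TGACGTCA, searched on both strands, lies at chr6:53287258-53287265, with its last base 5 bases before the GENCODE start and 38 bases before the RefSeq start. Of 32851 promoter windows of 250 bases in the table, 508 (1.55%) hold this motif. The second Creb5 window ends at chr6:53573373. It holds no full CRE and 1 match to TGANTCA, the motif that AP-1 pairs of JUN and FOS proteins bind, which 6.75% of all windows hold. That match lies in an annotated untranslated exon part, chr6:53573300-53573427, inside the span of Creb5. The windows of Creb1, Atf2 and Atf7 hold neither motif. These are matches of letters and say nothing of binding in these neurons.

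Creb5 was highest in gamma MNs. In S3 the cervical libraries held 1840, 1769 and 2064.5 CPM in replicates 1 to 3, the thoracic libraries 2044, 1718 and 1714 CPM, and the lumbar/sacral libraries 1703, 1601 and 1575 CPM. All 9 libraries therefore lay within a narrow band, with a mean of 1781 ± 174 CPM (SD, n = 9) and an SD of 9.78% of the mean.

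The other skeletal MNs held far less Creb5. Alpha MNs (S2) had 217 ± 68.5 CPM (SD, n = 9), from 129 to 326 CPM, and Type 3 MNs (S1) had 209 ± 51.7 CPM (SD, n = 9), from 143 to 277 CPM. The lowest S3 library was above the highest library of either cluster. Within libraries S3 stood above S2 by 3.07 ± 0.38 on the log2(CPM + 5) scale (SD, n = 9), which is 8.39-fold, and above S1 by 3.1 ± 0.23 (SD, n = 9), which is 8.55-fold, each in 9 of 9 libraries. Without the 2 libraries whose Hox genes went against their label these differences were 3.01 and 3.07. S1 and S2 differed by less than their spread, at -0.03 ± 0.30 on that scale. Of 11098 genes past the filter on low values, Creb5 ranked 25 from the highest in S3 minus S2, and 3.4% of those genes stood at least 1 higher in S3 while 4.98% stood at least 1 lower. Of the 5 genes followed, 4 passed that filter and Atf7 did not.

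Visceral MNs fell into a large set with much Creb5 and a pair of clusters with little. Over all visceral nuclei the level was 904 ± 177 CPM (SD, n = 9), which was 2.08 ± 0.46 above S2 on the log2(CPM + 5) scale in 9 of 9 libraries, 4.22-fold, and 2.06 without the 2 libraries with odd Hox genes. It was 0.99 ± 0.29 below S3 in 9 of 9 libraries. In this difference Creb5 ranked 188 from the highest of 11358 genes, and 6.88% of the genes stood at least 1 above S2 while 7.55% stood at least 1 below it.

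The 8 visceral clusters other than V6 and V9 had means from 641 CPM in V4 to 1221 CPM in V3, over 4784 nuclei. V3 held 1221 ± 254 CPM (SD, n = 9), V10 1210 ± 184 CPM (SD, n = 7), V1 1137 ± 212 CPM (SD, n = 9), V5 1066 ± 311 CPM (SD, n = 7) and V7 1019 ± 150 CPM (SD, n = 9). V8, which had at least 10 nuclei only in the lumbar/sacral libraries, held 1199, 1004 and 1108 CPM there. V2, at 782 ± 96.6 CPM, and V4, at 641 ± 112 CPM (SD, n = 9 each), were lowest of the set. In the order of means, S3 stood above V3 in 9 of 9 libraries, by 0.56 ± 0.18 on the log2(CPM + 5) scale, whereas neighbours among V3, V10, V1 and V8 did not differ beyond the spread. V8 stood above V5 in the 3 libraries that held both, by 0.33 ± 0.04, and V5 and V7 did not differ beyond the spread. V7 stood above V2 in 7 of 9 libraries, by 0.38 ± 0.30, V2 above V4 in 9 of 9, by 0.29 ± 0.19, and V4 above S2 in 9 of 9, by 1.59 ± 0.39.

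V6 and V9 went against their class. V6 held 94.6, 68.8 and 149 CPM in the cervical libraries and 54.8, 153 and 63.7 CPM in the thoracic libraries. V9 held 136, 71.7 and 269 CPM and 48.6, 158 and 62.7 CPM in the same libraries. The second value of each trio is from a library whose Hox genes went against its label, and without these the cervical values of each cluster all lay above the thoracic ones, which was not tested. Every one of these 12 values lay below the lowest of any library in the other 8 visceral clusters, which was 476 CPM in V4. In the lumbar/sacral cord V6 read 486 and 381 CPM in replicates 1 and 2, but from 13 and 10 nuclei, and V9 did not reach 10 nuclei in any library. Both clusters carried the visceral marker Zeb2, at 454 CPM in V6 and 556 CPM in V9, whereas Fbn2 stood at 363 CPM in V6 and 94.1 CPM in V9, which was the lowest of the visceral clusters.

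Interneurons held little Creb5. Their 8 clusters had means from 6.52 CPM in I7 to 21.4 CPM in I8, no library of any cluster exceeded 61.7 CPM, and none of these clusters differed from its neighbour in the order beyond the spread. Over all interneurons the level was 12 ± 6.92 CPM (SD, n = 9), from 3.70 to 24.1 CPM, which was 5.83 ± 0.55 below visceral MNs on the log2(CPM + 5) scale in 9 of 9 libraries. The same class stood 3.72 ± 0.45 below S1 and 3.75 ± 0.66 below S2 on that scale, so the low level of alpha and Type 3 MNs was well above that of interneurons.

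**Figure D1:**
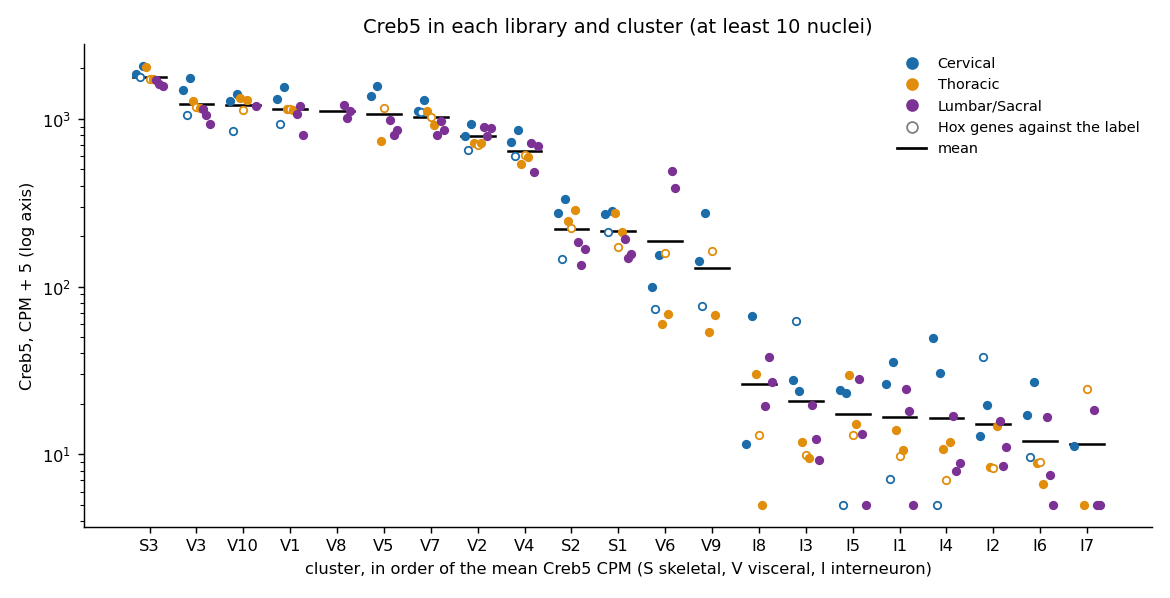
Creb5 level (CPM + 5, log axis) in each library with at least 10 nuclei of a cluster, with clusters in order of their mean and a line at the mean of the CPM. S3 leads at 1781 CPM, 8 visceral clusters lie between 641 and 1221 CPM, S2, S1, V6 and V9 follow at 217 to 124 CPM, and the interneuron clusters lie at 21.4 CPM or less, while open points mark libraries whose Hox genes go against their label.

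Creb5 had a corrected count in 100% of S3 nuclei in every region. Since depth differs between libraries, nuclei were compared at an equal 4600 corrected counts by thinning. Shallower nuclei were dropped, which removed 44.1% of lumbar/sacral replicate 1, 13.6% of lumbar/sacral replicate 3 and none elsewhere. After thinning 99.9% of 2149 S3 nuclei had at least 1 Creb5 count, with a median of 8 and quartiles of 5 and 10, and 84.0% had 5 or more. In S2 the share with a count was 76.1 ± 18.4% (SD, n = 9) before thinning and 58.8% of 1250 nuclei after it, and only 2.16% had 5 or more. S1 gave 55.4% and 1.37% after thinning. Low Creb5 in S1 and S2 was thus spread over many nuclei with 1 or few counts, with at most 11 counts in a nucleus against 27 in S3.

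V6 and V9 showed 0 counts in 71.5% of 579 and 69.2% of 247 thinned nuclei, and 5 or more in 1.04% and 0.81%. Every other visceral cluster had a count in at least 83.6% of thinned nuclei, with medians from 2 in V4 to 6 in V3. In interneurons 3.7% of 4514 thinned nuclei had a count (5.7 ± 4.6% before thinning, SD, n = 9), from 1.96% in I6 to 4.75% in I1. V6 at 28.5% and V9 at 30.8% lay above the share of every interneuron cluster. Free RNA can give counts in nuclei that do not express a gene, and its part in any of these shares was not tested.

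**Figure D2:**
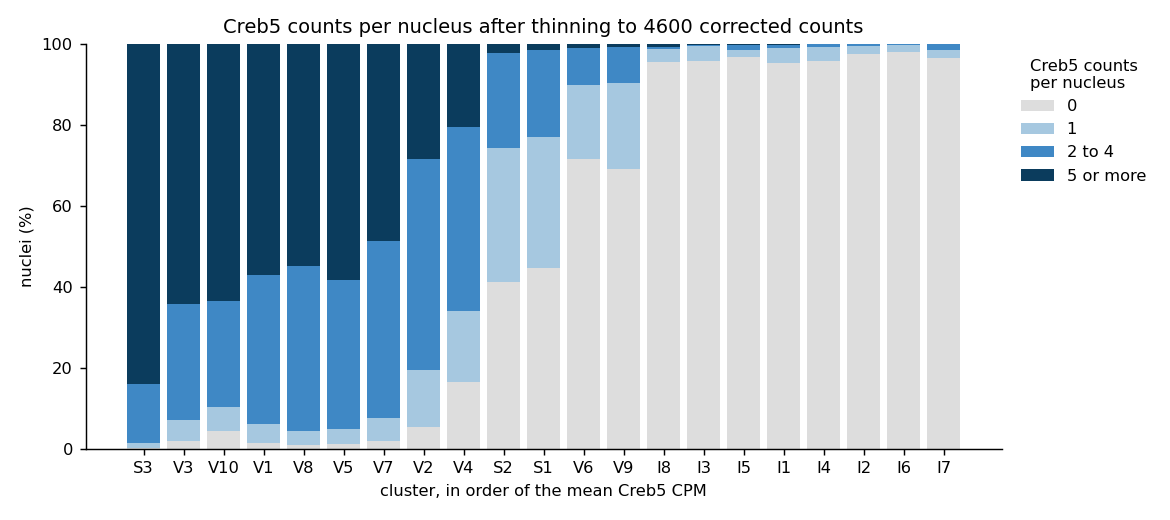
Share of nuclei (%) in each cluster with 0, 1, 2 to 4, or 5 or more Creb5 counts after each nucleus was thinned to 4600 corrected counts, with clusters in order of the mean level. Nearly all S3 nuclei carry Creb5 and 84.0% have 5 or more counts, most V6 and V9 nuclei have 0 although they are visceral, and interneurons have a count in 3.7% of nuclei.

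The relatives varied far less over the clusters. Creb1, the founding member of the family, had cluster means from 51.6 CPM in I7 to 101 CPM in S2, Crem, which gives both activators and the cyclic AMP-induced repressor ICER, from 24.6 CPM in I2 to 52.7 CPM in V5, and Atf2, a target of stress kinases, from 118 CPM in S2 to 187 CPM in V7. From S2 to S3 Creb1 moved by -0.23 ± 0.39, Crem by -0.38 ± 0.42 and Atf2 by 0.23 ± 0.32 on the log2(CPM + 5) scale (SD, n = 9). Each mean was smaller than its SD, but the directions were uneven: S3 was the higher in 3 of 9 libraries for Creb1, 1 of 9 for Crem and 8 of 9 for Atf2. Atf2 was 0.49 ± 0.27 higher in visceral MNs than in S2 in 8 of 9 libraries, at 167 ± 22.5 against 118 ± 28.5 CPM. It was lower in S3 than in visceral MNs in 9 of 9 libraries, by 0.26 ± 0.10 on that scale, the opposite order to Creb5. Creb1 and Crem were higher in visceral MNs than in interneurons in 9 of 9 libraries, by 0.32 ± 0.15 and 0.36 ± 0.16. Thinning left 35.8% of S2 nuclei with a Creb1 count, 32.3% of S3 nuclei and 25.6% of interneurons.

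Levels of different genes are compared per kilobase of gene span, since intron reads were counted and longer genes gather more. On this scale S3 held 4.31 CPM per kb of Creb5, 1.82 of Atf2, 1.18 of Creb1 and 0.524 of Crem. In S2 the order was Atf2 at 1.56 CPM per kb, Creb1 at 1.41, Crem at 0.730 and Creb5 at 0.524, and in interneurons Creb5 came last of these at 0.029 CPM per kb against 2.06 for Atf2. In visceral MNs Creb5 at 2.19 and Atf2 at 2.19 CPM per kb were level. The order depends on this division, which was not checked against the reads: in CPM, S2 held 217 of Creb5, 118 of Atf2, 101 of Creb1 and 52.3 of Crem.

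Atf7 could not be read. It had 33 corrected counts in all 16042 nuclei, and its highest cluster mean was 0.902 CPM, in V6. Atf7 (ENSMUSG00000099083.7, chr15:102525946-102625464, minus strand) shares its strand and nearly its whole span with Gm28047 at chr15:102523843-102625067, which had 32 corrected counts, so reads that fall in both genes may not have been counted for either. Crem overlaps Gm6225 on the other strand, and the strand setting of the counting is not given in the sources used here.

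**Figure D3:**
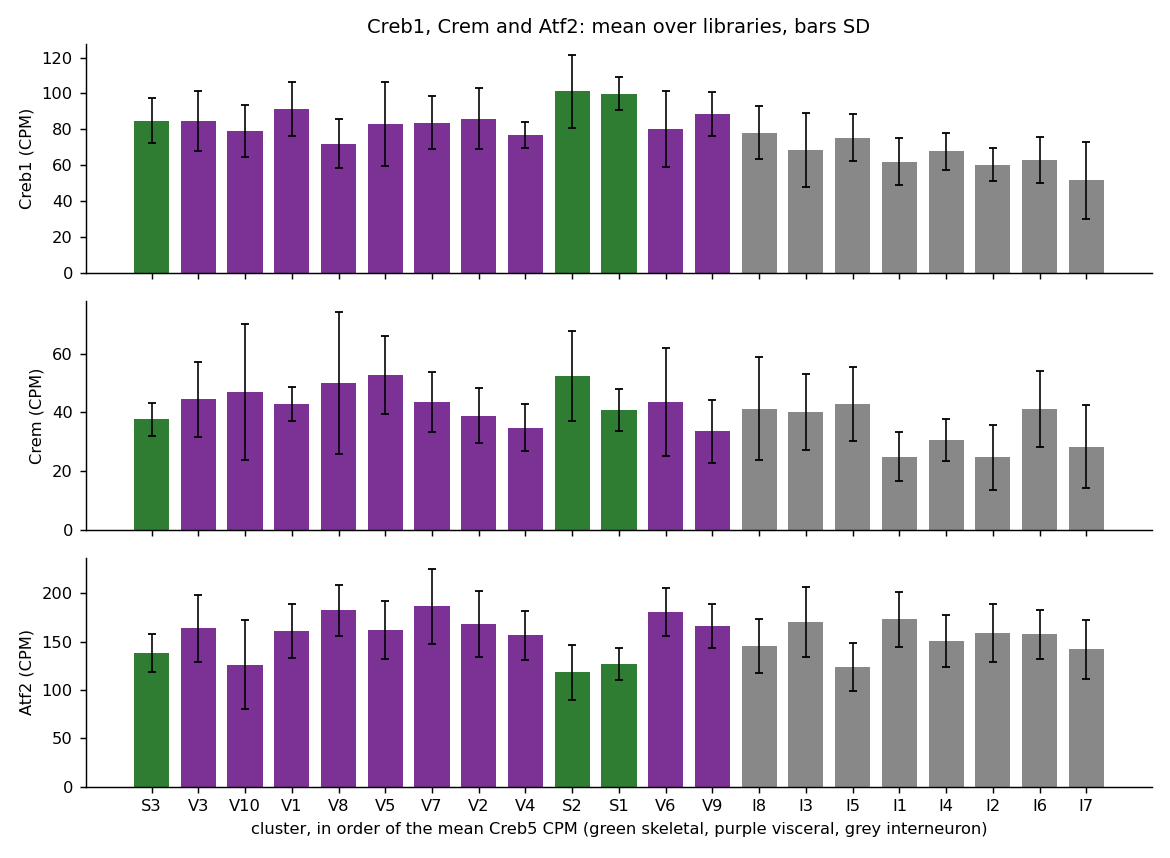
Levels (CPM) of Creb1, Crem and Atf2 in each cluster, as the mean over libraries with the SD as error bars and on axes from 0, with clusters in order of the mean Creb5 level. The range is narrow in each panel, with Creb1 and Crem lowest among interneuron clusters: Creb1 runs from 101 CPM in S2 to 51.6 CPM in I7 and Atf2 from 187 CPM in V7 to 118 CPM in S2.

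The genes most like Creb5 over the 21 clusters, of 10841 genes, were Add2 (Pearson r = 0.91), Nefl (0.89), Panx1 (0.89), Map1b (0.88), Jun (0.87), Hrk (0.87), Ikzf2 (0.87) and Tspan18 (0.86). These correlations are over 21 cluster means that share libraries, depth and normalization, and are a description. Add2, a membrane skeleton protein, had 376 CPM in S3, 162 CPM in S2 and at most 153 CPM in an interneuron cluster, Nefl, the light neurofilament, had 135, 133 and at most 39.2 CPM, and Tspan18, a membrane tetraspanin, had 381, 139 and at most 65.4 CPM. Jun, the AP-1 factor, had 46.3 CPM in S3, 12.3 CPM in S2 and at most 6.51 CPM in an interneuron cluster. Jun also stood at 43.2 CPM in V6, where Creb5 was low, and Ikzf2 at 42.3 CPM in S1 and 38.1 CPM in S3, so their order over clusters was not the same as that of Creb5. Among the relatives Creb1 had r = 0.67 (rank 286 of these genes), Crem 0.60 (rank 517) and Atf2 0.09 (rank 4842), so the order of Creb1 and Crem was partly that of Creb5. Among skeletal clusters their means ran the other way. Creb1 had 84.9 CPM in S3 against 101 in S2 and 99.7 in S1, and Crem 37.6 against 52.3 and 40.8 CPM.

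Other genes of the pathway differed between clusters one by one. Over all genes 3.4% stood at least 1 higher on the log2(CPM + 5) scale in S3 than in S2 and 4.98% at least 1 lower, which is the background for the small counts here. Of 9 further CREB/ATF factors past the filter, 1 stood at least 1 higher and 0 lower, namely Creb3l2, an endoplasmic reticulum-bound factor, at 53.7 ± 9.63 against 19.8 ± 7.98 CPM, 1.29 ± 0.43 higher in 9 of 9 libraries. Of 2 AP-1 partners, Jun was higher by 1.49 ± 0.63 in 9 of 9. None of the 6 coactivators was that far apart. Of 13 cyclic AMP and protein kinase A genes, 0 were higher and 1 lower: Adcy8, a calcium-stimulated adenylyl cyclase, at 119 ± 41.7 against 336 ± 117 CPM. Of 17 kinases 0 were higher and 2 lower, among them Camk1d, a calcium/calmodulin kinase, at 191 ± 35.6 against 525 ± 134 CPM. Of 8 genes with a known CRE, 2 were higher and 1, the immediate early gene Nr4a1, lower at 13.7 ± 4.36 against 37.5 ± 12.99 CPM. The higher pair were Ppargc1a, a coactivator of mitochondrial genes, at 259 ± 21.9 against 59.2 ± 12.2 CPM, and Bdnf, a neurotrophin, at 35.6 ± 9.47 against 11.7 ± 7.28 CPM. The list medians lay between -0.02 and 0.17 except for the pair of AP-1 genes at 0.57, against -0.01 over all 11098 genes.

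Against S2, visceral MNs differed in which adenylyl cyclases, the enzymes that make cyclic AMP, they carried. Over all genes 6.88% stood at least 1 higher and 7.55% at least 1 lower. Of 14 cyclic AMP and protein kinase A genes 2 stood at least 1 higher and 2 lower. Adcy7 had 48.8 ± 11.97 CPM in visceral MNs against 3.16 ± 2.80 CPM in S2, and Adcy2 1030 ± 122 against 306 ± 92.0 CPM. In the other direction Adcy8 had 26.1 ± 9.26 against 336 ± 117 CPM and Adcy1 18.4 ± 5.24 against 90.8 ± 37.5 CPM. All 4 had that direction in 9 of 9 libraries. Adcy7 did not pass the filter in S3 minus S2, so it entered here only through the visceral sums, where it is high. Its place among the higher genes rests on that entry. Of 18 kinases 3 were higher and 2 lower, led by Camk2a, a subunit of the synaptic calcium/calmodulin kinase, at 103 ± 33.1 against 9.23 ± 14.6 CPM. Of 9 genes with a known CRE 3 were higher and 1 lower, and of 9 CREB/ATF factors, 4 AP-1 partners and 6 coactivators 0 were. The 3 higher genes were Sik1, which also entered only through the visceral sums, Penk, at 1.59 ± 1.39, and Sst, at 1.07 ± 1.51. The list medians were 0.71 for genes with a known CRE, 0.72 for AP-1 partners, 0.41 for cyclic AMP and protein kinase A genes, 0.21 for coactivators, 0.07 for kinases and -0.02 for CREB/ATF factors, against 0.06 over all 11358 genes. These medians depend in part on the filter. Sik1, Jund, Fosl2, Adcy7 and Camk1g failed it in S3 minus S2, so only the visceral sums brought them in here. Their differences were 1.32, 0.77, 0.66, 2.76 and 0.93, and the medians without them were not computed. Ppargc1a, higher in S3 than in S2, was lower in visceral MNs, at 25.9 ± 4.6 CPM, so it did not accompany Creb5 into both types.

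**Figure D4:**
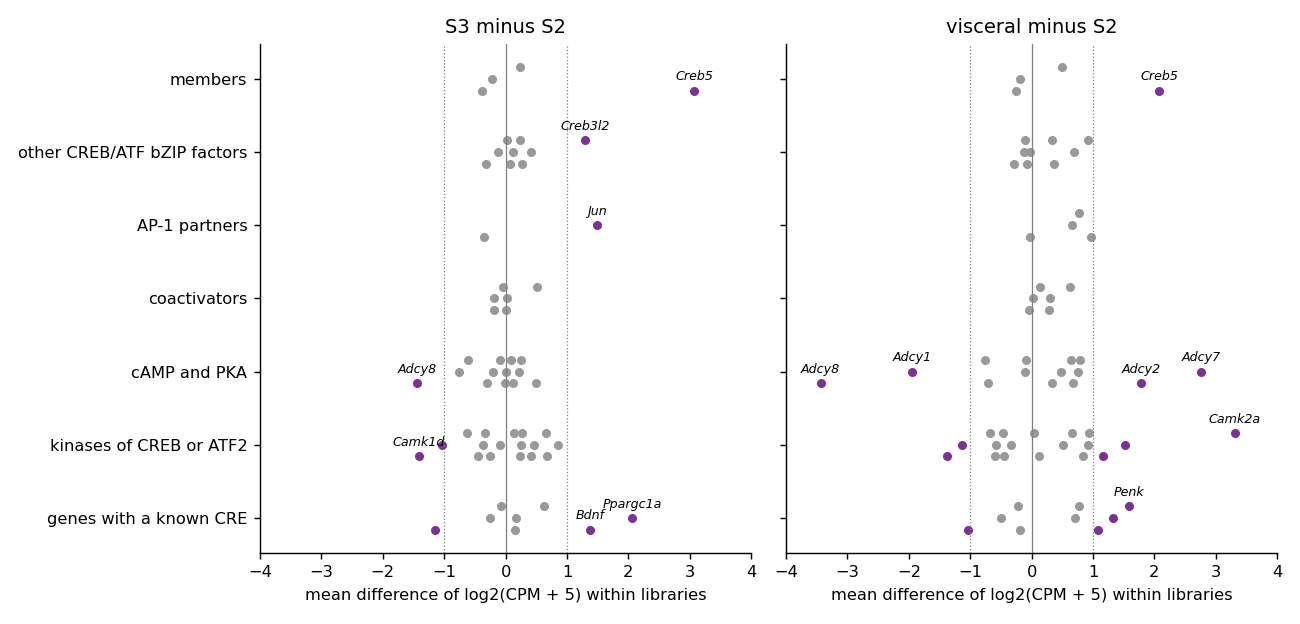
Difference of log2(CPM + 5) within libraries, averaged over 9 libraries, for each pathway gene past the filter, S3 minus S2 at left and visceral MNs minus S2 at right, with dotted lines at -1 and 1 and purple points beyond them. Creb5 stands at 3.07 and 2.08, most points lie between the dotted lines, and Adcy8 is low in both panels, which share S2.

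No difference in Creb5 between regions of the cord passed the test. Comparing lumbar/sacral with rostral (cervical and thoracic) libraries asks whether its level within a type depends on the level of the cord. In S3 the 3 lumbar/sacral libraries averaged 1626 ± 67.6 CPM (SD, n = 3) and the 6 rostral libraries 1858 ± 159 CPM (SD, n = 6), without overlap, but the difference of -0.19 (SE 0.12, 95% interval -0.46 to 0.08, log2 scale) did not pass the test (limma, adjusted p = 0.820), and 0.0711% of 9841 genes did. In S1 the levels were 160 ± 23.4 against 233 ± 44.5 CPM, a difference of -0.51 (SE 0.17, 95% interval -0.88 to -0.14, limma, adjusted p = 0.948). In S2 they were 156 ± 25.4 against 247 ± 63.3 CPM, a difference of -0.61 (SE 0.24, 95% interval -1.13 to -0.08, limma, adjusted p = 0.975). Both intervals lie below 0. The groups overlapped, but within each of the 3 pools of mice the lumbar/sacral library was the lowest of the 3 regions in S1, in S2 and in S3. With the pool as a replicate block Creb5 in S1 had a limma adjusted p of 0.131, in S2 of 0.884 and in S3 of 0.487. In S1 and S2 0% of 10025 and 0% of 10387 genes were called, although 439 and 245 had an unadjusted p under 0.05. The median over all genes lay at 0.10 in S1, 0.13 in S2 and 0.14 in S3, so Creb5 stood further below it than below 0. Without the pair of libraries with Hox genes against their label the differences were -0.65 in S1 (limma, adjusted p = 0.36), -0.82 in S2 (adjusted p = 0.91) and -0.23 in S3 (adjusted p = 0.53). The lumbar/sacral replicates 1 and 3 were also the shallowest libraries, and in S2 the oligodendrocyte markers summed to 95.4 to 149 CPM in the lumbar/sacral and 52.0 to 127 CPM in the rostral libraries. The study's methods state that each barcoded region was processed separately, and the part of that, of depth and of these markers in the values was not tested.

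In visceral MNs the lumbar/sacral libraries held 1027, 879 and 936 CPM, inside the range of the rostral ones, which was 695 to 1245 CPM. The difference of 0.13 (SE 0.18, 95% interval -0.28 to 0.54) did not pass the test (limma, adjusted p = 0.91), whereas 4.27% of 10031 genes did. Without the 2 libraries with odd Hox genes it was 0.07 (limma, adjusted p = 0.805). Makeup differed between these groups: V6 and V9 together gave 15.2 to 21.7% of visceral nuclei in the rostral libraries and 2.08 to 2.44% in the lumbar/sacral ones, and V8 gave 25.8 to 33.4% of the latter. When V1, V2, V3, V4 and V7, the clusters with enough nuclei in every library, were given equal weight, the difference was -0.15 (limma, adjusted p = 0.9997), the opposite direction. With the pool of mice as a replicate block, 737 genes were called in visceral MNs in place of 428, 44 in place of 5 in interneurons, 23 in place of 0 in S1, 1 in place of 0 in S2 and 12 in place of 7 in S3, and none of them was Creb5 or a relative. In interneurons it was -0.33 (SE 0.27, limma, adjusted p = 0.9997), at 9.38 against 13.3 CPM, with 0.051% of 9805 genes called, and -0.41 without the 2 libraries with odd Hox genes (limma, adjusted p = 0.873).

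Between cervical and thoracic S3 libraries no difference in Creb5 passed the test (0.05, SE 0.14, 95% interval -0.26 to 0.37, limma, adjusted p = 0.961), with 0% of 9841 genes called and 303 at an unadjusted p under 0.05, and it was 0.06 without the 2 libraries with odd Hox genes. Visceral MNs gave 979 ± 276 against 784 ± 107 CPM (SD, n = 3 each), a difference of 0.29 (SE 0.21, 95% interval -0.19 to 0.76, limma, adjusted p = 0.945), with 0% of 10031 genes called and 160 at an unadjusted p under 0.05. Without the libraries whose Hox genes go against their label, that difference was 0.62 (limma, adjusted p = 0.454), and without cervical replicate 2 alone it was 0.51 and without cervical replicate 3 alone 0.09. Cervical replicate 3 had the highest Creb5 level in all 8 motor neuron clusters that every library filled, S1, S2, S3, V1, V2, V3, V4 and V7, and also the highest level in interneurons, 24.1 CPM. In visceral MNs cervical replicates 1 to 3 held 998, 695 and 1245 CPM of Creb5, and thoracic replicates 1 to 3 held 723, 907.5 and 722.5 CPM. The second value of each trio is from a library with odd Hox genes. Without these 2 libraries both cervical values lay above both thoracic ones. Makeup differed too, but along the Hox genes more than along the labels. V5 gave 198, 5 and 77 nuclei in cervical replicates 1 to 3 and 15, 116 and 1 in the thoracic ones. The parts of region, of a possible exchange of labels, of single libraries and of makeup in this difference were not tested.

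Between male and female pools no difference in Creb5 passed the test either. S3 had 1696 ± 86.3 CPM in the male and 1785 ± 252 CPM in the female libraries (SD, n = 3 each), a difference of -0.07 (SE 0.13, 95% interval -0.39 to 0.26, limma, adjusted p = 0.85), with 0.0313% of 9573 genes called. Visceral MNs had 827 ± 115 and 968 ± 263 CPM, a difference of -0.20 (SE 0.24, 95% interval -0.84 to 0.44, limma, adjusted p = 0.73), with 0.0513% of 9744 genes called. Without cervical replicate 2 or cervical replicate 3 it was 0.12, and in S3 0.013, so the sign of both differences rested on these libraries. Both libraries with Hox genes against their label are in the male pool, and their labelled regions entered the fit. The pools were not compared with both left out. With no term for the region Creb5 was not called either. Each sex is 1 pool of mice, and sex and pool cannot be told apart.

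Over these 9 comparisons Creb1 lay between -0.14 and 0.05, Crem between -0.26 and 0.27 and Atf2 between -0.28 and 0.13 on the log2 scale. None was called by limma, the lowest adjusted p being 0.45, and none had an unadjusted p under 0.05. Atf7 was too low to be tested.

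**Figure D5:**
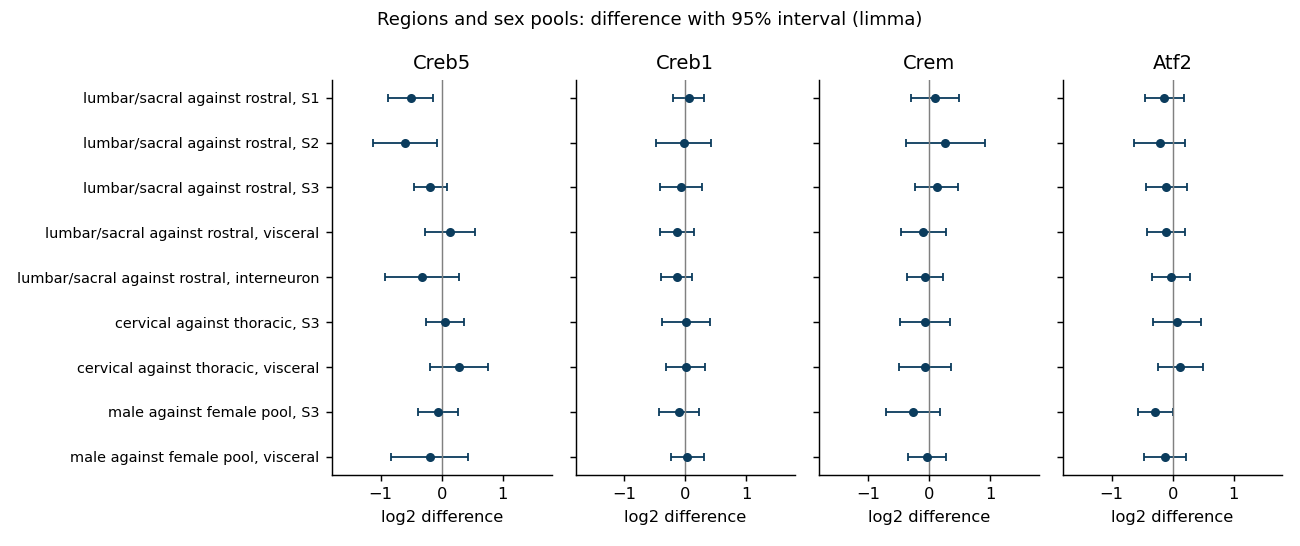
Log2 difference between regions or sex pools within a cell type for Creb5, Creb1, Crem and Atf2, as points with 95% intervals from limma. Creb5 in S1 and S2 has intervals below 0 before adjustment (-0.88 to -0.14 and -1.13 to -0.08), and every other interval shown includes 0.

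Of the pathway lists, only genes in the visceral class passed a test between regions, and all were higher in the lumbar/sacral cord, where 2.32% of all genes were called higher. Of 8 genes with a known CRE tested, 2 were called. Sst, the neuropeptide somatostatin, had 128, 101 and 170 CPM in the lumbar/sacral libraries and 0.803 to 6.65 CPM in the rostral ones, 4.00 higher on the log2 scale. It reached 10 CPM only in the lumbar/sacral libraries, so it entered the test through the group where it is high, and its call is a description. Penk, the precursor of enkephalins, had 132, 207 and 119 CPM against 2.41 to 18.3 CPM, 3.72 higher on that scale. Its lumbar/sacral libraries alone met the filter, and only 1 rostral library, thoracic replicate 2, reached 10 CPM. Penk thus also entered the test through the group where it is high, and its call is a description. Of 18 kinases 4 were called higher: Camk2d by 0.94, Rps6ka2 by 0.87, Camk4 by 0.80 and Camk2a by 0.76 (limma, adjusted p from 0.00598 to 0.0241). V8, the cluster found in the lumbar/sacral cord, held 385 CPM of Sst, 445 CPM of Penk and 946 CPM of Camk2d. Without the 2 libraries with odd Hox genes Sst was 4.18 and Penk 4.06 higher, and the 4 kinases were 0.75 to 0.89 higher and still called (limma, adjusted p from 0.0138 to 0.0271). With V1, V2, V3, V4 and V7 at equal weight, Sst was higher by 1.48. Penk (1.10, limma, adjusted p = 0.352) and the 4 kinases were then no longer called, but their sizes differed: Camk2a stayed at 0.74 (adjusted p = 0.0623), while Camk4 was at 0.37, Rps6ka2 at 0.32 and Camk2d at 0.13. Camk4 was also no longer called without any 1 of the lumbar/sacral libraries, cervical replicate 1 or thoracic replicate 3, nor Camk2d without lumbar/sacral replicate 1 (limma, adjusted p = 0.0569). The part of the makeup of the visceral class in these differences was not tested.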

How the data were processed

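Nuclei were sorted, captured with 10x 3′ v3 chemistry and aligned to a pre-mRNA form of mm10, which counts intron reads, with Cell Ranger 3.1.0 per the submitters' processing notes, which also name Seurat and DESeq2. The deposited matrix holds whole-number scores, the counts that the authors corrected for depth with SCTransform, each barcoded region processed separately per their methods, so no count model was used. Totals per nucleus had an SD of 5.85 to 10.7% of the mean within a library. They were not level within a region: the medians were 7087, 16127 and 10255.5 in cervical replicates 1 to 3. Cell clusters are the authors' deposited annotation. Doublets were not called again here, and the gene annotation release used in counting is not given in the sources used here.

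Corrected counts were summed per library and cluster or class (at least 10 nuclei), scaled to CPM, and taken to log2(CPM + 5). A gene was tested if 3 or more sums reached 10 CPM. The test was run with limma 3.58.1 (trend, two-sided, R 4.3.3), which fitted region and, for sex, region and sex together. A call is a Benjamini-Hochberg adjusted p under 0.05 over all genes tested, and intervals are 95%. The fit was also run on simulated counts drawn independently for each library, so that run does not cover libraries that share mice. Differences between clusters are within-library means with no test. Nuclei were thinned to 4600 corrected counts (seed 1). Python 3.11.15, numpy 2.4.6, pandas 2.3.3, scipy 1.17.1 and matplotlib 3.10.9 were used.

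The libraries of a replicate number were taken to come from the same mice. The labels give only region, sex and replicate number, and the paper's methods state that each cord was divided into the regions. Deviations from the region means correlated between libraries of the same number with medians of 0.33 to 0.75 over 9 pairs in each population, and the lowest was -0.22. Each sex and each replicate is 1 pool, so p-values measure the spread between libraries of few pools. Depth ran from 4712 to 16127 corrected counts in the median nucleus, and lumbar/sacral replicate 1 was the shallowest.

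The members, gene lists and tests were chosen with earlier results of these data known. Named are the members, the 8 genes most like Creb5 over clusters, up to 6 pathway genes per cluster difference that were at least 1 apart on the log2 scale, by size, and up to 6 pathway genes called per comparison of regions, by p. Nr4a1 was named after its value was seen, as were the Zeb2, Fbn2 and Glis3 levels of single clusters. Sik1, Jund, Fosl2 and Camk1g were named afterwards, for the way they passed the filter. Gene positions are from GENCODE M21 on GRCm38, and promoter sequence is from RefSeq for GRCm38.p6. Alternatives covered scaling, pseudocount, filters, the replicate block, cluster weights and each library left out. After the data were seen, cervical and thoracic as 1 group and the odd libraries left out of the Creb5 cluster differences were added.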

Additional observations from a re-analysis of the deposited data

Results flagged for a closer look

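The 88 sets of 4 to 10 libraries each hold a member's level in a cluster, in all visceral MNs or in all interneurons. Of these, 7 had 1 library far from the others by Dixon's criterion. Chance meets it in about 1 of 20 independent sets, but these sets share libraries, and the class sets share nuclei with the cluster sets. In the library labelled cervical replicate 2, Creb5 read 32.9 CPM in I2 with the nearest library at 14.6 CPM, and 57.7 CPM in I3 with the nearest at 22.8 CPM. The same library read 69.7 CPM of Crem in I3 against 45.1 CPM and 189 CPM of Atf2 in S2 against 122 CPM in the nearest. These values rest on 31 nuclei in I2, 27 in I3 and 71 in S2. Thoracic replicate 3 read 79.4 CPM of Crem in I8, from 10 nuclei, against 48.9 CPM. Lumbar/sacral replicate 2 read 101 CPM of Atf2 in V4, from 54 nuclei, against 142 CPM, and lumbar/sacral replicate 1 read 273 CPM of Atf2 in V7, from 20 nuclei, against 203 CPM.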

How the results depend on the processing

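No setting brought Creb5, Creb1, Crem or Atf2 past the threshold in any comparison, and the replicate block changed no call of a member. In visceral MNs the lumbar/sacral difference of Creb5 turned to -0.15 with clusters at equal weight. Leaving out 1 library at a time, Creb5 between cervical and thoracic S3 ran from -0.012 (without cervical replicate 3) to 0.14, between sex pools in S3 from -0.11 to 0.013 and in visceral MNs from -0.46 to 0.12, the last 2 turning without cervical replicate 2 or 3. The difference of Creb5 between visceral MNs and interneurons was 4.86 with a pseudocount of 20 in place of 5.83. The causes were not tested.

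Numbers of genes called moved more. In S1, lumbar/sacral against rostral, 0 became 8 with a pseudocount of 20, 9 with no filter, 5 with at least 10 counts in every sum, 23 with the replicate block, 2 without the libraries with odd Hox genes, 7 with cervical and thoracic as 1 group, and 0 to 9 without 1 library. In S2, 0 became 1 with the replicate block and 1 with the regions as 1 group. In S3, 7 became 3 with median-of-ratios scaling, 2 with a pseudocount of 1, 17 with no filter, 12 with the replicate block, 3 without the odd libraries, and 0 to 4 without 1 library. In visceral MNs, 428 became 737 with the replicate block, 70 with equal weights and 160 to 471 without 1 library. In interneurons, 5 became 3 with median-of-ratios scaling, 2 with a pseudocount of 1, 2 with at least 10 counts in every sum, 44 with the replicate block, 13 without the odd libraries, 1 with equal weights, 8 with 1 group, and 1 to 9 without 1 library. Between cervical and thoracic S3, 0 became 2 without the odd libraries. Between sex pools, 3 in S3 became 6 with median-of-ratios scaling, 0 with at least 10 counts in every sum, 7 with no region term and 0 to 1187 without 1 library, and 5 in visceral MNs became 0 with at least 10 counts in every sum and 0 to 425 without 1 library.

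Camk4 was also no longer called in visceral MNs with median-of-ratios scaling (limma, adjusted p = 0.104). Sst could not be fitted without any 1 lumbar/sacral library, nor with at least 10 counts in every sum, because it then fell below the filter. Thinning lowered the share of nuclei with Creb5 in 20 of 21 clusters. Few nuclei limit V6 in the lumbar/sacral cord.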

Other observations

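Cervical replicate 3 held the highest Creb5 level of all 9 libraries in S1 (277 CPM), S2 (326 CPM) and S3 (2064.5 CPM), and in V4 (848 CPM) and the other visceral clusters that every library filled. It also had the highest level in interneurons, where 16.7% of nuclei had a Creb5 count. The lowest library in the same 8 motor neuron clusters was lumbar/sacral replicate 2 in 3 clusters, lumbar/sacral replicate 3 in 3, lumbar/sacral replicate 1 in 1 and cervical replicate 2 in 1.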
